A study of Mus musculus with 12 samples.

Results

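The 48 interferon-stimulated genes described here are mouse genes whose transcription is known to rise after interferon. They were taken by symbol from the 53715 gene identifiers in the count files, and all 48 had an identifier in GENCODE M21. By role they are 6 sensors of nucleic acid, 4 genes of signalling and transcription, 8 of the ISG15 system and of ubiquitin or ADP-ribose ligases, 10 effectors directed at RNA, 6 effectors acting on nucleotides and membranes, 6 GTPases of the IRG and GBP families and 8 other induced genes. The filter on low counts left 14473 genes for testing, and 43 of the 48 passed it. In the 8 libraries other than the mT69a knockout and mT69a SPDEF-OE ones, 35 of the 48 would have passed, so 8 members (Ifi204, Usp18, Ifit2, Ifit3, Iigp1, Gbp2, Gbp3 and Ifi44) entered the test through the groups in which they were high.

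RNA was sequenced from epithelial organoids grown in Matrigel from pancreatic tumours of C57/Bl6 mice, in 2 lines, mT6 and mT69a, with 2 libraries in each of 6 groups. Every group carries the tumour alleles KrasLSLG12D/+ and Trp53LSLR172H/LOH with Pdx1-Cre, in which the Pdx1 promoter drives Cre recombinase in the pancreatic epithelium. In each line the control is a Rosa26-knockout clone with the Empty vector, the knockout is an Spdef-knockout clone named KO1 with the Empty vector, and the third group is KO1 labelled SPDEF-OE. The protein SPDEF, an ETS-domain factor, binds DNA in secretory epithelium. The knockout of each line is 1 clone, so the deletion and the clone cannot be told apart. Nothing in the labels says that the 2 libraries of a group came from separate cultures, so p-values cover no more than the spread of these libraries, which may be technical. The age of the mice is not analysed here.

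Type I and type III interferons bind surface receptors whose kinases JAK1 and TYK2 activate the complex ISGF3, of which STAT2 and IRF9 are parts. ISGF3 binds the interferon-stimulated response element (ISRE) in the promoters of antiviral genes, whereas interferon gamma acts at the gamma-activated site (GAS). Several products, such as the sensors RIG-I and MDA5 and the factors IRF7, STAT2 and IRF9, act in the same pathway again, and epithelial tumour cells can carry the programme without added interferon.

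Promoters show what the list shares beyond its name. A RefSeq table for GRCm38.p6 held windows of 300 bases (250 before the start site and 50 after) for 36 of the 48 members and for 27025 genes in all. The core of the ISRE was searched as GAAANNGAA on both strands and the GAS as TTCNNNGAA, which reads the same on both strands, with overlapping matches counted separately. The ISRE core was present in 21 of 36 members (58.3%) and in 9.76% of all genes, and the GAS in 8 of 36 (22.2%) and in 9.55%. The 150 bases before the start are printed for 5 members that the results below turn on, 4 with the ISRE core and Epsti1 without it, with matches in capitals.
Isg15: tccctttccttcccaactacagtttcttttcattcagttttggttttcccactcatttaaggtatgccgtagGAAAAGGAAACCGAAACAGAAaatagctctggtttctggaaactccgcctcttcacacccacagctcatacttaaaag
Ifit1: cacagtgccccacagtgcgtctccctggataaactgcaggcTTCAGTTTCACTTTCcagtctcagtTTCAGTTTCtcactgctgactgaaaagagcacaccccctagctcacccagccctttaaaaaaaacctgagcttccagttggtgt
Oas1a: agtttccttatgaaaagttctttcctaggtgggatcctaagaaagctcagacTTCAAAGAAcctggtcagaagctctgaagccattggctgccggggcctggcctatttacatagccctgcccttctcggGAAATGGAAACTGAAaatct
Ifi211: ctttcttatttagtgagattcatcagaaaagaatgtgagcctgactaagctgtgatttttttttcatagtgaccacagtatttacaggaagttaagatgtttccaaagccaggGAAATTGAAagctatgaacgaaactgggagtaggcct
Epsti1: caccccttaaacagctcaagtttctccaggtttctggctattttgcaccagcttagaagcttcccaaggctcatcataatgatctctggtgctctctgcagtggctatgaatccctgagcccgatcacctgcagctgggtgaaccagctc
The Isg15 stretch is chr4:156200819-156200968 on the minus strand, with 3 overlapping ISRE cores that begin 78, 72 and 66 bases before the start. In Ifit1 (chr19:34640739-34640888, plus strand) 3 cores begin 109, 103 and 84 bases before the start. Oas1a (chr5:120907526-120907675, minus strand) has a GAS match 98 bases and ISRE cores 20 and 14 bases before the start. Ifi211 (chr1:173913047-173913196, minus strand) has a single core 37 bases before the start. Epsti1 (chr14:77904089-77904238, plus strand) has no match to either motif in its window of 300 bases. A match is a description of the letters, not a bound site, and a missing match says only that these letters are not in the window.

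Depth ran from 9094295 to 28903831 counts per library. The mitochondrial share of counts was 12.7% to 15.5% for replicate number 1 and 18.6% to 27.1% for replicate number 2, whatever the group. Reads of Spdef itself numbered 30 and 29 in the mT6 controls but 0 and 2 in the mT6 knockout. The mT69a controls held 2 and 4 of them and the mT69a knockout 2 and 0, too few to check that label. The libraries labelled SPDEF-OE held 1 and 0 Spdef counts in mT6 and 2 and 0 in mT69a, so the deposited counts of the mouse gene do not show the vector, and the group is called by its label throughout. Epithelial markers summed to 3850 to 7080 CPM (counts scaled by effective library size) in the 12 libraries. The 17 immune markers summed to 2.47 to 13.0 CPM, with Adgre1, Tyrobp and Cd3e at 0 in all libraries, Ptprc at 3 counts or fewer and Cd68 the only marker to pass the filter. Fibroblast markers stayed at or below 0.708 CPM, acinar markers at or below 0.704 and endothelial markers at or below 3.15.

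The 2 libraries of the mT69a knockout stood apart from each other in these genes. Library 1 was more than 2-fold above library 2 in 34 of the 43 tested members, against 1.63% of all tested genes. The median difference was 2.06 on the log2 scale for members and 0.02 for all genes. The list was chosen with earlier results of these data known. Only 35 members pass the filter without the mT69a knockout and SPDEF-OE libraries. These shares therefore describe the libraries and are no test of the list. In the mT69a SPDEF-OE group 5 members were more than 2-fold higher in library 1 (0.829% of all genes), and 0 were higher in library 2 (1.26%). In the mT6 controls 0 members differed so in either direction (2.24% of all genes higher in library 1 and 3.07% in library 2), in the mT6 knockout 0 and 1 (1.87% and 3.59%), in the mT6 SPDEF-OE group 2 and 2 (3.48% and 4.26%) and in the mT69a controls 0 and 1 (0.719% and 2.35%). The largest count ratio among the tested members with counts in both was in Oas2, at 44.6 (95% exact interval 23.3 to 97.9), with 12.7 TPM (a transcript share scaled for gene length) in library 1 and 0.21 in library 2. It was 14.2 in Irf7, with 42.1 and 2.44 TPM, and 1.85 in Epsti1. Mitochondrial genes took 15.5% of counts in library 1 and 20.5% in library 2. The share was higher in library 2 of every group, and its part in the difference between the 2 knockout libraries was not tested. Results for the mT69a knockout are therefore given with both libraries and without library 1.

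**Figure D1:**
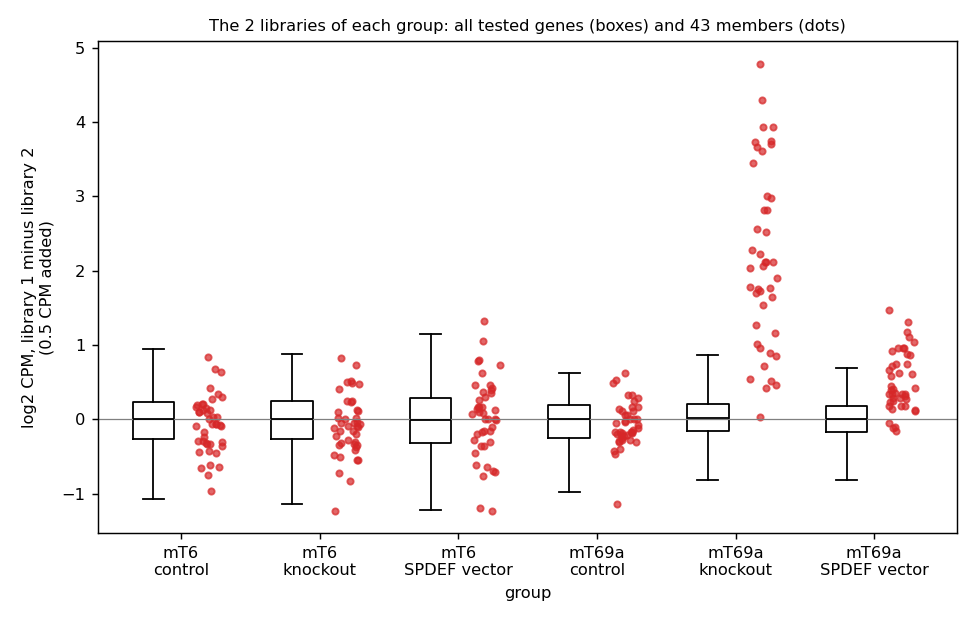
Difference between the 2 libraries of each group in log2 CPM (library 1 minus library 2, 0.5 CPM added), for all 14473 tested genes (boxes with quartiles, whiskers spanning the central 95%) and the 43 tested members (dots); SPDEF vector marks the libraries labelled SPDEF-OE. The members lie around 0 in the mT6 groups and the mT69a controls, and 34 of them lie above 1 in the mT69a knockout.

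Against the mT69a controls, interferon-stimulated genes were higher in the mT69a Spdef-knockout clone. Of the 43 tested members 22 rose and none fell, against 4.88% of all genes that rose and 3.71% that fell, and edgeR's quasi-likelihood test called 0 members lower, as did DESeq2 and an unadjusted p under 0.05. DESeq2 called 32 higher, and 38 were higher at an unadjusted p under 0.05. Over the 35 members that pass the filter without the mT69a knockout and SPDEF-OE libraries, edgeR called 19 higher and 0 lower (6 higher without library 1), and their median log2 fold change was 2.90. The median log2 fold change was 3.47 over the 43 members, 3.26 with members at or under 3 counts set to their bound, and -0.01 over all genes. Both knockout libraries lay above both controls in 37 of the 43 members, and the same held for 24.1% of all genes. The 22 were Ifih1, Dhx58, Ifi204, Ifi211, Irf9, Usp18, Parp14, Dtx3l, Ifit1, Oas1a, Oas2, Oas3, Rsad2, Cmpk2, Igtp, Gbp3, Gbp7, Ifi27, Ifi35, Epsti1, Xaf1 and Rtp4. In bulk RNA, more cells expressing a gene and more of its RNA per cell cannot be told apart.

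The calls in the mT69a knockout depended on the libraries kept. Those of Dhx58, Usp18, Ifit1, Oas2, Oas3, Rsad2, Ifi27 and Xaf1 were lost in 11 of 12 fits with 1 library left out. The fit without library 1 is only 1 of these. Most calls in the knockout were lost without library 1. Without it 7 of 43 members rose (Epsti1, Ifi204, Ifi211, Parp14, Ifih1, Oas1a and Gbp7), against 2.35% of all genes, and none fell (1.29%), with a median of 0.97. Calls without library 2 are not counted here, since members such as Ifit3b, Mx2 and Sp100 then passed the filter through library 1 itself. Leaving out mT69a control library 1 or library 2 left 4 calls each time, those of Epsti1, Ifi204, Ifi211 and Parp14, which held in all 12 fits with 1 library left out. The count was 12 without either mT6 control or either mT69a SPDEF-OE library, and 13 without either mT6 knockout library. Compared with the mean of the controls, 38 of 43 members were more than 2-fold higher in library 1 (5.32% of all genes) and 9 of 43 in library 2 (4.57%). Summed over the 47 members other than Lgals3bp, the level was 89.1 and 79.2 TPM in the mT69a controls, 707 and 123 under knockout and 340 and 198 in the SPDEF-OE libraries. Neither knockout library overlapped the controls in this sum, and library 2 lay below both SPDEF-OE libraries. In mT6 the sum was 142 and 125 TPM in the controls, 176 and 128 under knockout and 147 and 123 in the SPDEF-OE libraries, and the groups overlapped.

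**Figure D2:**
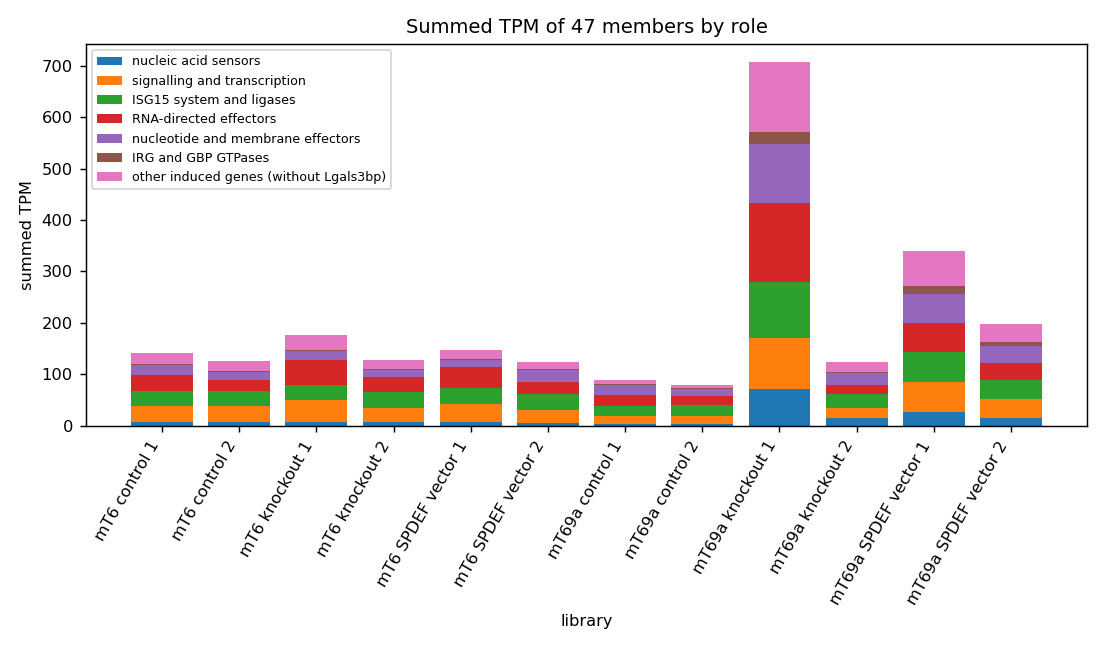
Summed TPM of 47 members (Lgals3bp left out) in each of the 12 libraries, stacked by role; the axis starts at 0. The highest bar is library 1 of the mT69a knockout at 707 TPM and the next are the mT69a SPDEF-OE libraries at 340 and 198 TPM.

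**Figure D3:**
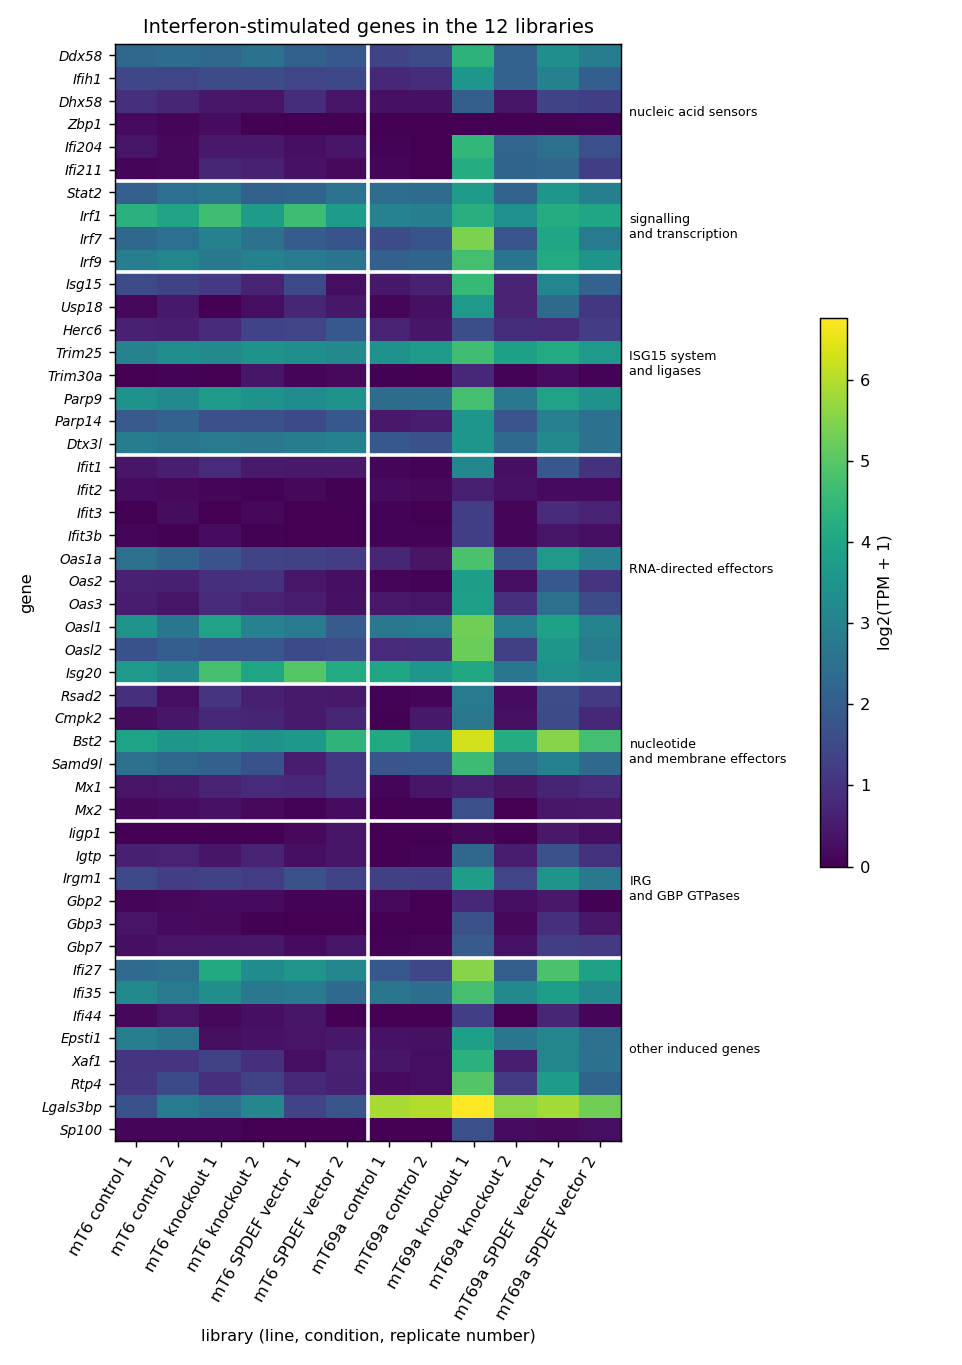
Level of each member (rows, grouped by role) in each of the 12 libraries (columns), with the libraries labelled SPDEF-OE marked SPDEF vector. The scale is log2(TPM + 1), dark for low and bright for high, and library 1 of the mT69a knockout is the brightest column for most members, such as Irf7 at 42.1 TPM.

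Among the sensors 4 of 5 tested members rose in the mT69a knockout (4.88% of all genes), with a median of 2.90 on the log2 scale. Of these, Ifi204 entered the test through the mT69a groups in which it was high. Ifi204 and Ifi211 belong to the PYHIN family of DNA-binding proteins. Ifi204 was at 0.05 and 0 TPM in the mT69a controls, 21.2 and 3.65 under knockout and 4.62 and 2.14 in the SPDEF-OE libraries, and between 0.1 and 0.39 TPM in the 6 mT6 libraries. Both knockout libraries and both SPDEF-OE libraries lay above every mT69a control and every mT6 library. Its summed counts were 720 in the knockout and 1 in the controls, a ratio of 738 (95% exact interval 132 to 29200, counting error only), and it rose at an adjusted p of 0.000921. Library 2 alone held 89 counts, a ratio of 239 (41.8 to 9540) to the controls, and the adjusted p without library 1 was 0.00118. Ifi211, with 462 counts against 2, had a ratio of 237 (65.2 to 1960) and an adjusted p of 0.0009, and without library 1 an adjusted p of 0.00329. It read 0.07 and 0 TPM in the mT69a controls, 17.2 and 3.54 under knockout and 3.71 and 1.38 in the SPDEF-OE libraries. In mT6 it read 0.06 and 0.11 TPM in the controls, 0.64 and 0.55 under knockout and 0.26 and 0.12 in the SPDEF-OE libraries. In the mT6 knockout it was not called by the test used here, but was with the replicate block and without the count filter, alternatives given below. The gene models of Ifi211 and Mndal overlap on the same strand and the family is closely related in sequence, so the split of counts among its genes is uncertain.

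The RNA helicases of the RIG-I family were less far from their controls. Ifih1, which encodes MDA5, a sensor of long double-stranded RNA, was at 0.70 and 0.86 TPM in the mT69a controls, 10.6 and 3.34 under knockout and 6.84 and 3.08 in the SPDEF-OE libraries. Both the knockout and the SPDEF-OE libraries lay above both controls and overlapped each other, and Ifih1 lay between 1.66 and 1.94 TPM in mT6. It rose by 2.64 ± 0.48 (log2 fold change ± SE, adjusted p = 0.00782) and by 1.47 ± 0.24 without library 1 (adjusted p = 0.01). Ddx58, which encodes RIG-I, was at 1.59 and 1.99 TPM in the controls, 19.7 and 3.33 under knockout and 9.27 and 6.09 in the SPDEF-OE libraries, and between 2.61 and 4.71 in mT6. Its log2 difference of 2.67 ± 0.74 did not pass (adjusted p = 0.0651), and library 2 lay within the range of mT6. Dhx58, the helicase LGP2 that modulates both, rose by 2.90 ± 0.79 (adjusted p = 0.0481), but the difference was 0.76 ± 0.64 without library 1 (adjusted p = 0.732). Zbp1, a sensor of left-handed nucleic acid, held at most 2 counts in any library and was not tested.

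Of the 4 signalling and transcription genes, Irf9 rose in the mT69a knockout (4.88% of all genes). Irf9, the DNA-binding part of ISGF3, was at 3.17 and 3.49 TPM in the mT69a controls, 26.3 and 5.23 under knockout, 16.5 and 10.2 in the SPDEF-OE libraries and 5.02 to 7.53 in mT6. Its rise of 2.14 ± 0.48 (adjusted p = 0.0256) became a difference of 0.96 ± 0.27 without library 1 (adjusted p = 0.0965), and reads from Rnf31, which overlaps it on the same strand, can be shared with it. Irf7, the factor that amplifies interferon transcription, read 1.94 and 2.39 TPM in the controls and 42.1 and 2.44 under knockout. Library 2 thus stood at the controls' level, the SPDEF-OE libraries at 14.8 and 5.91 TPM, and the difference did not pass (3.10 ± 0.95, adjusted p = 0.0934). Stat2 was at 4.30 and 4.28 TPM in the controls and 12.3 and 3.48 under knockout, with library 2 below both controls (0.77 ± 0.39, adjusted p = 0.329). Irf1, which is also a direct target of interferon gamma, was at 7.04 and 6.36 TPM in the controls and 18.4 and 9.59 under knockout. Both knockout libraries lay above the controls, and the difference of 0.98 ± 0.35 did not pass (adjusted p = 0.142).

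The ISG15 system attaches the ubiquitin-like protein ISG15 to other proteins. Isg15 itself was at 0.36 and 0.55 TPM in the mT69a controls, 21.9 and 0.57 under knockout and 7.61 and 3.37 in the SPDEF-OE libraries. Library 1 of the knockout held 183 counts and library 2 held 4, a ratio of 28.3 (10.9 to 105) at equal depth, and the difference from control of 4.28 ± 1.3 did not pass (adjusted p = 0.0836). Usp18, the protease that removes ISG15 and restrains signalling at the type I receptor, had 2 and 2 counts in the controls, 266 and 7 under knockout and 99 and 23 in the SPDEF-OE libraries. It rose by 5.78 ± 1.47 (adjusted p = 0.0428), and the adjusted p was 0.479 without library 1. Herc6, a ligase for ISG15, read 0.58 and 0.34 TPM in the controls and 2.10 and 0.85 under knockout and did not pass (adjusted p = 0.132).

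Trim25 and the PARP9-DTX3L pair modify proteins with ubiquitin or ADP-ribose, and their genes stood above 2 TPM in all 12 libraries. Trim25, a ubiquitin ligase linked to RIG-I, was at 10.1 and 12.3 TPM in the mT69a controls, 24.7 and 13.2 under knockout, 16.7 and 11.6 in the SPDEF-OE libraries and 7.05 to 10.03 in mT6, and did not pass (0.43 ± 0.18, adjusted p = 0.198). Parp14, a mono-ADP-ribosyltransferase, was at 0.38 and 0.43 TPM in the controls, 10.7 and 2.45 under knockout and 6.70 and 4.89 in the SPDEF-OE libraries. It rose by 3.82 ± 0.58 (adjusted p = 0.00404), and by 2.54 ± 0.28 without library 1 (adjusted p = 0.00109). Its mT6 values ran from 1.85 to 3.40 TPM, so knockout library 2 of mT69a lay inside the mT6 range and the mT69a controls below it. Dtx3l, the ubiquitin ligase partner of PARP9, had the smallest rise among the 22 called members. It was at 2.66 and 2.20 TPM in the controls, 10.7 and 3.95 under knockout and 8.02 and 4.72 in the SPDEF-OE libraries, a rise of 1.41 ± 0.28 (adjusted p = 0.0115) that was 0.80 ± 0.20 without library 1 (adjusted p = 0.0674). Parp9 was at 4.25 and 4.23 TPM in the controls, 26.0 and 5.48 under knockout, 13.8 and 9.96 in the SPDEF-OE libraries and 8.43 to 11.8 in mT6 (1.61 ± 0.43, adjusted p = 0.0527). Parp9 and Dtx3l overlap on opposite strands.

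The effectors directed at RNA include the oligoadenylate synthetases, which activate RNase L on double-stranded RNA, and the IFIT proteins, which bind foreign RNA ends. In this group 4 of 9 tested members rose in the mT69a knockout, Ifit1, Oas1a, Oas2 and Oas3 (4.88% of all genes). The median over the 9 was 4.55, or 4.28 with the floor, and Ifit2 and Ifit3 entered the test through the mT69a groups. Oas1a was at 0.65 and 0.27 TPM in the controls, 27.0 and 2.28 under knockout, 11.4 and 6.74 in the SPDEF-OE libraries, and at 4.63 and 3.54 in the mT6 controls. Its rise of 4.74 ± 0.95 (adjusted p = 0.0167) was 2.42 ± 0.41 without library 1 (adjusted p = 0.0109), and knockout library 2 lay above both mT69a controls and below both mT6 controls. Oas2 was at 0.06 and 0.05 TPM in the controls, 12.7 and 0.21 under knockout, 2.62 and 1.05 in the SPDEF-OE libraries and 0.22 to 0.97 in mT6. Oas2 rose by 6.73 ± 1.64 (adjusted p = 0.0386), with 649 of its 658 knockout counts in library 1, and had an adjusted p of 0.197 without that library. Oas3 likewise read 0.39 and 0.30 TPM in the controls and 13.1 and 0.88 under knockout, with a rise of 4.28 ± 1.07 (adjusted p = 0.0434, and 0.284 without library 1).

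Ifit1 had 3 and 2 counts in the mT69a controls, 282 and 6 under knockout and 97 and 30 in the SPDEF-OE libraries. Its rise of 5.56 ± 1.4 (adjusted p = 0.0422) was lost in 11 of 12 fits with 1 library left out, that without library 1 among them. Library 2 gave a ratio of 3.22 (0.819 to 13.3) to the controls. Ifit2 and Ifit3 did not pass (adjusted p = 0.172 and 0.136), and Ifit3, whose sequence is close to that of Ifit3b, held 30 and 2 counts under knockout and 1 and 0 in the controls. The OAS-like genes are related to the synthetases. Oasl1, an inhibitor of translation of Irf7 mRNA, was at 5.48 and 6.03 TPM in the controls, 38.1 and 6.58 under knockout, 13.6 and 7.20 in the SPDEF-OE libraries and 2.86 to 13.8 in mT6, and did not pass (1.70 ± 0.64, adjusted p = 0.17). Oasl2 reached 36.5 and 1.42 TPM against 0.74 and 0.84 (4.61 ± 1.23, adjusted p = 0.0594). Isg20, an exonuclease on RNA, was the only tested member with a negative difference. It was at 15.1 and 10.8 TPM in the mT69a controls, 15.2 and 5.32 under knockout and 9.59 and 7.83 in the SPDEF-OE libraries (-0.50 ± 0.35, adjusted p = 0.528).

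Among effectors acting on nucleotides and membranes, Rsad2 and Cmpk2 rose and lie next to each other at chr12:26442746-26479837. Rsad2 encodes viperin, which makes a chain-terminating nucleotide, and Cmpk2 is a mitochondrial nucleotide kinase. Rsad2 held 2 and 5 counts in the mT69a controls, 306 and 7 under knockout and 111 and 54 in the SPDEF-OE libraries. Its rise of 5.21 ± 1.33 had an adjusted p of 0.0453, and of 0.503 without library 1. Cmpk2 held 1 and 2 counts in the controls and 233 and 8 under knockout, a ratio of summed counts of 82.3 (27.8 to 402, adjusted p = 0.025, and 0.168 without library 1). In both genes nearly all knockout counts were in library 1. The count ratio of library 2 to the controls was 7.15 (1.72 to 41.9) in Cmpk2 and 2.68 (0.803 to 8.96) in Rsad2, where the interval spans 1. In TPM, Cmpk2 was at 0.23 in library 2 and at 0.02 and 0.39 in the controls, so library 2 lay between them.

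Bst2, or tetherin, which holds virus particles at the membrane, was at 16.1 and 9.35 TPM in the controls, 77.5 and 17.0 under knockout, 44.9 and 25.8 in the SPDEF-OE libraries and 10.2 to 19.9 in mT6. Library 2 of the knockout was close to the higher control, and the difference of 1.69 ± 0.49 did not pass (adjusted p = 0.0717). Samd9l was at 2.44 and 2.54 TPM in the controls, 23.7 and 4.60 under knockout and 6.90 and 4.02 in the SPDEF-OE libraries (2.23 ± 0.60, adjusted p = 0.0593). In mT6 it was at 4.60 and 3.84 TPM in the controls, 3.20 and 2.25 under knockout and 0.44 and 1.14 in the SPDEF-OE libraries, which did not overlap the other groups. That difference from control in mT6 did not pass (-2.34 ± 0.68, adjusted p = 0.0734). Mx1, a dynamin-like GTPase, stayed between 0.06 and 1.08 TPM in all 12 libraries and did not pass in any comparison.

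The IRG and GBP GTPases act at the membranes of vacuoles that hold pathogens and respond to interferon gamma as well. In the mT69a knockout 3 of 6 rose, Igtp, Gbp3 and Gbp7 (4.88% of all genes), with a median of 4.39 or, with the floor, 3.97. Iigp1, Gbp2 and Gbp3 entered the test through the mT69a groups in which they were high, so this count and median are no fair sample of the family. Igtp was at 0 and 0.04 TPM in the controls, 3.86 and 0.46 under knockout, 2.20 and 0.97 in the SPDEF-OE libraries and 0.22 to 0.60 in mT6. Its summed counts of 111 against 1 gave a ratio of 114 (20 to 4530, adjusted p = 0.00967), and without library 1 the adjusted p was 0.0778. Gbp3 held no counts in the controls, 72 and 3 under knockout and 22 and 11 in the SPDEF-OE libraries, so it was at least 25.6-fold higher than a floor of 3 counts over the control group (adjusted p = 0.0402, and 0.279 without library 1). In TPM Gbp3 was at 2.21 and 0.10 under knockout, 0.90 and 0.36 in the SPDEF-OE libraries and 0 to 0.28 in mT6. Gbp7 held 3 and 3 counts in the controls and 180 and 14 under knockout and rose by 4.78 ± 0.92 (adjusted p = 0.0102), or 2.60 ± 0.60 without library 1 (adjusted p = 0.048).

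Irgm1, a regulator of the other IRG proteins, was at 1.45 and 1.33 TPM in the mT69a controls, 12.5 and 1.68 under knockout, 10.2 and 5.57 in the SPDEF-OE libraries and 1.31 to 2.17 in mT6. The knockout difference of 1.98 ± 0.57 did not pass (adjusted p = 0.0693), whereas the SPDEF-OE libraries rose above control by 2.41 ± 0.58 (adjusted p = 0.0245). Iigp1 held 4 and 0 counts in the mT69a knockout and 16 and 7 in the SPDEF-OE libraries, and in mT6 3 and 8 in the SPDEF-OE libraries. In the controls of both lines and in the mT6 knockout it was at 0. Gbp2 held 2 and 0 counts in the mT69a controls and 23 and 5 under knockout (adjusted p = 0.091). Genes of these families are close in sequence, and Igtp overlaps Irgm2 on the same strand, so their separate counts are uncertain.

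Among the other induced genes 5 of 7 tested members rose in the mT69a knockout (4.88% of all genes), with a median of 3.47. Of the 7, Ifi44 entered the test through the mT69a groups. Epsti1, an interferon-induced gene of epithelial and stromal cells, was at 0.25 and 0.23 TPM in the mT69a controls, 13.0 and 5.27 under knockout and 7.43 and 4.57 in the SPDEF-OE libraries. No value overlapped between control and the other groups, and the libraries of the knockout differed by a ratio of 1.85 (1.48 to 2.34), less than in most members. It rose by 5.0 ± 0.39 (adjusted p = 3.8e-05), and by 4.48 ± 0.35 without library 1 (adjusted p = 0.000165). Rtp4, a membrane protein and chaperone of receptors, was at 0.14 and 0.19 TPM in the controls, 29.9 and 1.23 under knockout, 12.2 and 3.51 in the SPDEF-OE libraries and 0.52 to 1.85 in mT6. Its summed counts of 433 against 3 gave a ratio of 148 (50.3 to 720, adjusted p = 0.0297), and for library 2 alone 12.5 (3.49 to 68). Without library 1 the adjusted p of Rtp4 was 0.103.

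In mT6 Ifi27, a mitochondrial protein, was at 4.14 and 4.64 TPM in the controls, 16.3 and 8.78 under knockout and 10.45 and 7.6 in the SPDEF-OE libraries. In mT69a it was at 2.64 and 1.69 TPM in the controls, 45.1 and 3.10 under knockout and 27.3 and 13.6 in the SPDEF-OE libraries. It rose by 3.39 ± 0.87 (adjusted p = 0.0476), with library 2 below every mT6 library, and the adjusted p was 0.344 without library 1. Ifi35, a partner of NMI, had the other small rise among the called members. It was at 5.27 and 4.47 TPM in the controls, 26.4 and 8.22 under knockout, 12.6 and 8.41 in the SPDEF-OE libraries and 3.94 to 9.17 in mT6 (1.67 ± 0.40, adjusted p = 0.0291, and 0.279 without library 1). Xaf1, an antagonist of the apoptosis inhibitor XIAP, held 11 and 7 counts in the controls and 215 and 14 under knockout (3.47 ± 0.87, adjusted p = 0.0362, and 0.487 without library 1). Ifi44 held 36 and 0 counts under knockout and 0 in both controls and did not pass (adjusted p = 0.132). Lgals3bp, a secreted glycoprotein that binds galectins, was the most abundant member in the mT69a controls, with 57.9 and 62.2 TPM in the controls, 107 and 47.3 under knockout and 55.0 and 38.3 in the SPDEF-OE libraries (0.23 ± 0.45, adjusted p = 0.868).

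**Figure D4:**
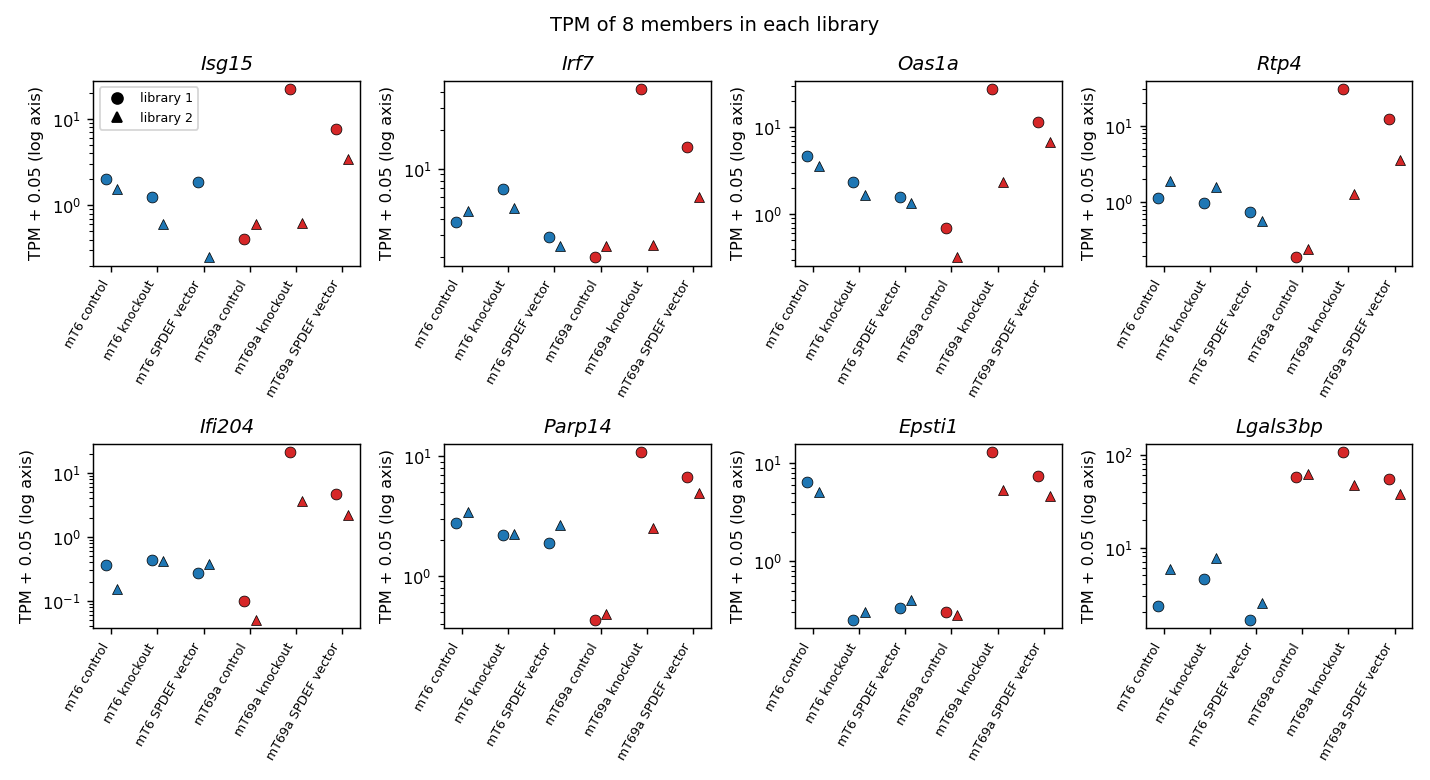
TPM (0.05 added, log axis) of 8 members in each library, as dots by line and condition; SPDEF vector marks the libraries labelled SPDEF-OE. In the mT69a knockout the dots of Isg15 (21.9 and 0.57 TPM), Irf7 and Oas1a lie far apart, those of Epsti1 (13.0 and 5.27 TPM) lie close together, and Lgals3bp separates the lines.

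Of the 5 members that did not pass the filter, 4 had most of their counts in library 1 of the mT69a knockout, and Zbp1 had none there. Sp100, a nuclear body protein, held 43 and 3 counts in the mT69a knockout, 5 and 3 in the SPDEF-OE libraries and 0 in both controls. Mx2 held 48 and 0 counts under knockout and 0 and 1 in the controls, and Ifit3b 36 and 1 against 1 and 1. Trim30a, a ubiquitin ligase, held 37 and 2 counts under knockout and 1 and 0 in the controls. In library 2 alone none of the 5 held more than 3 counts. In the 6 mT6 libraries these 5 genes held 7 counts or fewer each.

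In mT69a the libraries labelled SPDEF-OE were also above control. Of 43 tested members 17 rose and 0 fell against control, when 7.01% of all genes rose and 5.36% fell, and the median was 3.08. Over the 35 members that pass the filter without these groups, 15 rose. DESeq2 called 31 higher and 0 lower, and an unadjusted p under 0.05 gave 37 higher and 0 lower. This comparison shares its control libraries with that of the knockout, so the 2 sets of values stand side by side and are not independent. Iigp1 (at least 8.46-fold, adjusted p = 0.0467), which entered the test through the mT69a groups in which it was high, and Irgm1 passed against control here and not in the knockout, and Usp18, Ifit1, Oas2, Oas3, Rsad2, Gbp3 and Ifi35 passed in the knockout and not here, but the test of SPDEF-OE against knockout called none of these 9 members. The count was 4 without control library 1, 6 without control library 2, 6 and 8 without SPDEF-OE library 1 and 2, and 33 without either knockout library (6.3% of all genes without library 1).

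Member by member, the rise over control in the mT69a SPDEF-OE libraries was 7.4 ± 1.17 in Ifi204 (adjusted p = 0.00292), 5.79 ± 1.0 in Ifi211 (adjusted p = 0.00407) and 4.61 ± 0.39 in Epsti1 (adjusted p = 4.97e-05). Ifi204 and Ifi211 had 1 and 2 counts in the controls, where the fitted value depends on a prior count, and their count ratios were 222 (39.4 to 8810) and 65.7 (17.8 to 549). Parp14 rose by 3.94 ± 0.58 (adjusted p = 0.00255), Ifih1 by 2.64 ± 0.48 (adjusted p = 0.00591), Oas1a by 4.36 ± 0.95 (adjusted p = 0.0186) and Gbp7 by 4.75 ± 0.93 (adjusted p = 0.00816). These last 4, with Epsti1, Ifi204 and Ifi211, are also the 7 that rose in the knockout without its library 1. More than 2-fold above the control mean were 38 of 43 members in SPDEF-OE library 1 and 33 in library 2 (6.38% and 5.73% of all genes).

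**Figure D5:**
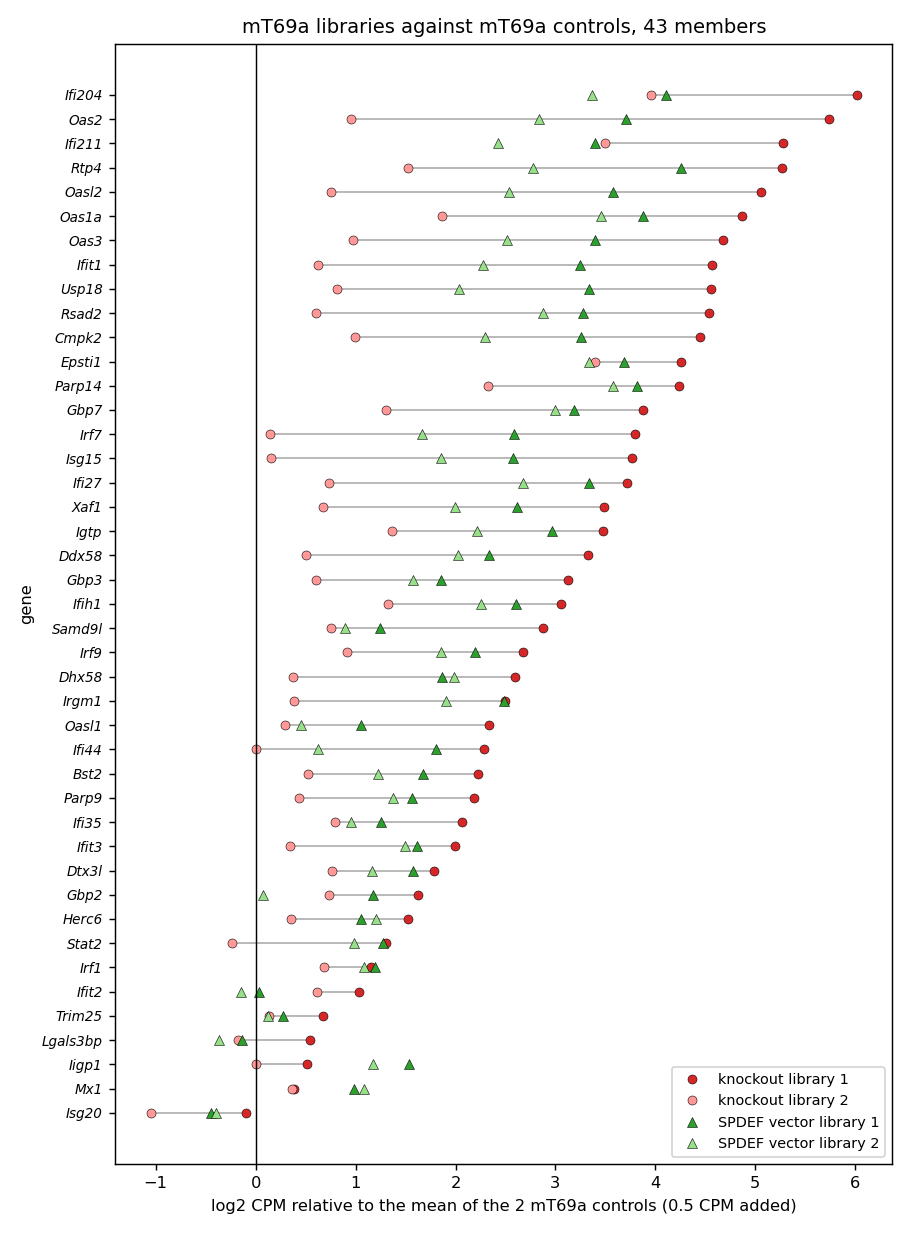
log2 CPM of the 43 tested members in each mT69a knockout and SPDEF-OE library, relative to the mean of the 2 mT69a controls (0.5 CPM added). Library 1 of the knockout lies furthest right for most members, with a median of 3.05, the SPDEF-OE libraries have medians of 2.34 and 1.86, and library 2 of the knockout has a median of 0.67.

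Against the knockout itself, the mT69a SPDEF-OE libraries showed no called member in either direction with both knockout libraries, when 2.57% of all genes rose and 1.68% fell. By edgeR 1 member was higher and 3 were lower at an unadjusted p under 0.05, and DESeq2 called 0. The median was -0.38, and in 33 of 43 members both SPDEF-OE libraries lay above knockout library 2 and below knockout library 1 (6.24% of all genes). The reading depended on the knockout library used. Without library 1, 12 members were higher in the SPDEF-OE libraries than in knockout library 2 (1.25% of all genes), with a median of 1.71. They were Ddx58, Ifih1, Stat2, Irf7, Parp9, Parp14, Oas1a, Oas2, Oasl2, Rsad2, Irgm1 and Ifi27, for example Irf7 by 2.21 ± 0.41 (adjusted p = 0.0306) and Irgm1 by 1.97 ± 0.35 (adjusted p = 0.0237). Epsti1 (0.14 ± 0.29, adjusted p = 0.937), Ifi204 (-0.17 ± 0.54, adjusted p = 0.967) and Ifi211 (-0.54 ± 0.63, adjusted p = 0.855) were not among them. Without library 2 the median was -1.21 over 47 tested members, some of which then passed the filter through library 1 alone. With 1 library left in the knockout, it is assumed to vary like the other groups.

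In mT6 the median knockout difference over the 43 members was 0.00 on the log2 scale, or 0.12 with members at or under the floor set to their bound, against 0.01 for all genes. No member rose in the mT6 knockout, where 1.28% of all genes did. DESeq2 called 0 higher, and 2 were higher at an unadjusted p under 0.05. The 1 member that fell was Epsti1, when 1.96% of all genes fell. It was at 6.42 and 5.06 TPM in the mT6 controls, 0.20 and 0.25 under knockout and 0.28 and 0.35 in the SPDEF-OE libraries, and so was high in the mT6 controls and low in both KO1 groups of mT6. Epsti1 fell by 4.57 (± 0.40, adjusted p = 0.00032) in the knockout and by 4.09 (± 0.41, adjusted p = 0.00032) in the SPDEF-OE libraries, in comparisons that share the controls. Its summed counts of 12 and 9 against 366 gave ratios of 23.5 (13.3 to 45.8) and 16.9 (8.8 to 37.2), and both calls held in all 12 fits with 1 library left out.

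Isg20 rose in the mT6 SPDEF-OE libraries against control by 1.33 ± 0.35 (adjusted p = 0.0435), when 3.9% of all genes rose and 4.7% fell. It was at 11.4 and 8.15 TPM in the mT6 controls, 26.0 and 15.1 under knockout and 30.2 and 16.4 in the SPDEF-OE libraries. Both KO1 groups lay above both controls, and library 1 was above library 2 in every mT6 group. The call was lost in 7 of 12 fits with 1 library left out, with an adjusted p of up to 0.238 without SPDEF-OE library 1. The others that lost it were those without either mT6 control, either mT69a control or either mT69a SPDEF-OE library. Against the mT6 knockout the SPDEF-OE libraries had 0 members higher and 0 lower by edgeR (1.55% and 1.14% of all genes), 1 and 2 at an unadjusted p under 0.05, and 0 and 1 by DESeq2.

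The knockout differences of the 2 lines were compared directly. Fits that leave out a library apply the filter again, so members can enter them through library 1 of the mT69a knockout. By edgeR's test of the difference between lines, 7 of 43 members had a larger difference in mT69a and 0 a smaller one, when 4.04% and 2.58% of all genes were called in these directions. At an unadjusted p under 0.05 the counts were 29 and 1, and DESeq2 called 23 and 0. The 7 were Epsti1, Parp14, Ifi204, Oas1a, Igtp, Ifih1 and Gbp7. Of these, Ifi204 entered the test through the mT69a groups in which it was high. Over the 35 members that pass the filter without the mT69a knockout and SPDEF-OE libraries, 6 had a larger difference and 0 a smaller one. Without library 1 of the mT69a knockout there were 5 larger and 1 smaller (2.31% and 1.26% of all genes), the smaller being Isg20, and without library 2 there were 33 larger. The count was 1 or 2 when any of the 4 control libraries was left out. It was 1 and 3 without mT6 knockout library 1 and 2, 3 without mT6 SPDEF-OE library 1, and 4 without library 2 of either SPDEF-OE group. For SPDEF-OE against knockout the lines differed in 0 members in either direction by edgeR, by DESeq2 and at an unadjusted p under 0.05, when 0.0138% of all genes were called.

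The starting levels of the lines differed. Of 43 members 6 were lower and 2 higher in the mT69a controls than in the mT6 controls, when 14.7% of all genes were lower and 13.4% higher, so the share called was close to the background. The median was -1.22, against -0.03 for all genes, and both mT69a controls lay below both mT6 controls in 30 of 43 members (31.8% of all genes). Epsti1 was lower by a ratio of 22.9 (12.9 to 44.7, adjusted p = 2.79e-05), Parp14 by 7.79 (6.17 to 9.96, adjusted p = 0.00584) and Igtp by 32.2 (5.49 to 1300, adjusted p = 0.0247). Dtx3l, Oas1a and Irf1 were the other 3 lower members, with ratios of 2.32, 8.64 and 2.22. Lgals3bp was higher in mT69a by a ratio of 14.3 (12.7 to 16.1, adjusted p = 0.000819), and held 2.26 and 5.78 TPM in the mT6 controls against 57.9 and 62.2. Trim25 was higher by 0.55 ± 0.18 (adjusted p = 0.0433). The lower count was 1 and 3 without mT69a control library 1 and 2, 3 without mT6 control library 2, and 19 and 20 without mT69a knockout library 1 and 2, and the higher count was 1 when any of the 4 control libraries or either mT69a SPDEF-OE library was left out.

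Genes around the members in the pathway were read from fixed lists. Of 21 interferon ligands 14 were at 0 in all 12 libraries, Ifnb1 and Ifng among them, and Ifne was the only ligand to pass the filter. Ifne, an epithelial type I interferon, had 13 and 16 counts in the mT69a controls, 63 and 46 under knockout and 5 and 1 in the SPDEF-OE libraries. In mT6 it had 21 and 23, 50 and 67, and 5 and 5 counts in the same order. It was high in the knockout and low in the SPDEF-OE libraries of both lines. In mT69a it rose by 1.96 ± 0.45 in the knockout (adjusted p = 0.0217) and was lower by 4.08 (± 0.55, adjusted p = 0.00208) in SPDEF-OE than in the knockout, whereas in mT6 the knockout difference of 1.71 ± 0.43 did not pass (adjusted p = 0.0635). Without library 1 of the mT69a knockout the Ifne difference was 2.08 ± 0.55 (adjusted p = 0.0842). In the mT69a SPDEF-OE libraries Ifne was lower than control by 2.13 (± 0.59, adjusted p = 0.0401). That call was lost without library 1 or library 2 of the mT69a knockout. The part of Ifne in the members' values was not tested.

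In the lists that follow, single calls stand against 4.88% of all genes that rose and 3.71% that fell. Of 9 receptor and kinase genes edgeR called 0 higher in the mT69a knockout (2 at an unadjusted p under 0.05, 0 by DESeq2) and 1 fell, Ifngr1, a chain of the interferon gamma receptor, which fell by 0.90 (± 0.14, adjusted p = 0.00276, and 0.0282 without library 1). Of 9 negative regulators 1 fell, the phosphatase gene Ptpn6, which fell by 1.02 (± 0.28, adjusted p = 0.0486, and 0.229 without library 1), and DESeq2 called 0 of them lower. Upstream of interferon, 2 of 13 tested genes of nucleic acid sensing rose, Tmem173 and the adaptor gene Myd88, and Myd88 had an adjusted p of 0.0333, or 0.114 without library 1. Tmem173, which encodes STING, the adaptor of cytosolic DNA sensing, had 12 and 23 counts in the mT69a controls, 144 and 93 under knockout and 39 and 56 in the SPDEF-OE libraries, and 202 to 2055 in the mT6 libraries. It rose by 2.79 ± 0.38 (adjusted p = 0.00138), and by 2.82 ± 0.46 without library 1 (adjusted p = 0.01). Of 13 nucleases and editors that limit self nucleic acid edgeR and DESeq2 called 0 in either direction, with 2 higher and 0 lower at an unadjusted p under 0.05. Among them Adar, the RNA editor ADAR1, differed by 0.83 ± 0.28 (adjusted p = 0.107). Irf8, a factor of the same family as Irf7, did not pass in either knockout but held more counts in the SPDEF-OE libraries of both lines. In mT69a these were 174 and 88 counts against 1 and 0 in the controls. In mT6 they were 167 and 111 against 28 and 41 in the controls and 21 and 26 under knockout.

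Of 70 other interferon-induced genes outside the list, 48 were tested and 18 rose in the mT69a knockout (4.88% of all genes), with a median of 1.77, and 0 fell by edgeR, by DESeq2 or at an unadjusted p under 0.05. Without library 1 the count was 6 (2.35% of all genes). In the mT6 knockout 1 rose and 2 fell (1.28% and 1.96% of all genes), with a median of -0.32. Some of the 48 entered the test through the mT69a groups in which they were high. Ifi205, for example, held 87 and 0 counts in the mT69a knockout, 0 in both mT69a controls and 6 or fewer in each mT6 library. Ifi203 held 57 and 7 against 1 and 0, and 2 or fewer in each mT6 library. A count without such genes is not given, so the shares of this list are no test. Tap1 and Tap2, which load peptides onto class I molecules, rose by 3.72 ± 0.45 (adjusted p = 0.000625) and 2.40 ± 0.31 (adjusted p = 0.000921), and Ifitm3, which blocks viral fusion, by 4.92 ± 0.66 (adjusted p = 0.00194). These 3 also rose without library 1, with adjusted p of 0.000904, 0.0108 and 0.00871. Of the immune markers, Csf1r, Itgam and Itgax had 11, 7 and 7 counts in library 1 of the mT69a knockout, 3, 0 and 1 in library 2, 8, 11 and 13 and then 6, 10 and 4 in the SPDEF-OE libraries, and 3 or fewer in the controls. The immune list summed to 13.0 and 8.61 CPM in the knockout libraries, 7.30 and 5.95 in the SPDEF-OE libraries and 4.0 and 6.13 in the controls. Most of this sum was Cd68, with 215 and 92 counts under knockout, 88 and 45 in the SPDEF-OE libraries and 61 and 84 in the controls. Cd68 also held 19 to 171 counts in the mT6 libraries. The part of the immune list in the members' values was not tested.

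By position, the 48 members lie on 15 chromosomes, and 18 of them fall in 7 clusters of neighbours under 100 kb apart (GRCm38). Parp14, Dtx3l and Parp9 share chr16:35832874-35972605, where 2 of 3 rose in the mT69a knockout (4.88% of all genes). The 4 Ifit genes lie at chr19:34550694-34650009, with 1 of 4 called, and Gbp7, Gbp3 and Gbp2 at chr3:142530342-142638008, with 2 of 3. Oas2 and Oas3 (chr5:120730333-120777661) and the pair Rsad2 and Cmpk2 were called in full, and Oasl2 with Oasl1 (chr5:114896936-114937915) and Mx1 with Mx2 (chr16:97447035-97560900) not at all. Among members with a promoter window, the ISRE core was in 9 of 15 called (60%) and in 10 of 18 that were tested and not called (55.6%), and the GAS in 4 of each.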

How the data were processed

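Total RNA of 12 organoid libraries was extracted with TRIzol and DNase-treated, and libraries were made with the TruSeq Stranded Total RNA kit, per the labels' protocols. Per the submitters' processing notes the tools were FastQC 0.11.8, STAR 2.5.2b and RSEM 1.3.0 with GRCm38.p6; the strand setting of the counting is not given in the sources used here. The authors deposited expected counts (estimated, RSEM) and TPM for each gene and library. Expected counts were rounded to whole numbers, as 8.08% to 11.3% of all values, zeros included, were not whole within 0.005. Of the counts, 0.0109% had no symbol. They were tested with edgeR 4.0.16 (R 4.3.3), TMM scaling, filterByExpr by group and robust quasi-likelihood fits of 6 group means over 12 libraries with 6 residual degrees of freedom. The 9 comparisons were two-sided, with Benjamini-Hochberg adjustment over 14473 genes and a threshold of 0.05. On simulated data for the mT69a knockout comparison over 14473 genes, 27% of genes changed 2-fold and 82% of those changed 4-fold were recovered, with 4 false calls. The changed genes were drawn above a minimum mean count and given the same fold in both knockout libraries. The recovered shares therefore do not describe members with few control counts or with unequal knockout libraries. Alternatives were RLE scaling, no count filter, DESeq2 1.42.0, a replicate block, limma 3.58.1 on log2(TPM + 1) and log2(TPM + 0.1) with a mean TPM of at least 1 or no filter, and leaving out each library.

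Ratios of summed counts per effective library size carry 95% exact intervals, for counting error only. The floor of 3 counts over a group stands for a group at 0, which for 1 library is 0.107 to 0.352 CPM. The members, lists and tests were chosen with earlier results of these data known. Named in full by rule were the 2 most abundant members of each role, the 6 largest and 2 smallest rises in the mT69a knockout, the mT6 calls, the members that failed the filter, the ligand that passed it and 3 genes of other lists. A further gene that the rule names is not reported here. Isg15, Irf7, Oas1a, Parp14, Gbp7 and the others were chosen after their values were seen. Symbols came from the gene tables supplied with the reference. Tests across so few libraries rest on a spread shared over groups, with a biological coefficient of variation of 19.2%.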

Additional observations from a re-analysis of the deposited data

Results flagged for a closer look

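The difference between knockout and control was itself larger in mT69a than in mT6 for 7 of 43 tested members, by edgeR's test of the difference between lines, and smaller for 0. It was larger for 6 and smaller for 0 of the 35 members that pass the filter without the mT69a knockout and SPDEF-OE libraries. Epsti1 stood apart most, with a difference between lines of 9.58 ± 0.56 on the log2 scale (adjusted p = 1.86e-05) and it rose in the mT69a knockout and fell in that of mT6. It was 9.05 without library 1 of the mT69a knockout (adjusted p = 3.79e-05), and it was the only 1 of the 7 to hold in all 12 fits with 1 library left out.

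The other 6 were Parp14 at 4.26 ± 0.76 (adjusted p = 0.0119), Ifi204 at 7.95 ± 1.74 (adjusted p = 0.0255), Oas1a at 5.82 ± 1.25 (adjusted p = 0.0271), Igtp at 6.54 ± 1.53 (adjusted p = 0.03), Ifih1 at 2.66 ± 0.65 (adjusted p = 0.0411) and Gbp7 at 4.98 ± 1.24 (adjusted p = 0.0417). In Ifi204 and Igtp, with 1 count over the mT69a controls, the fitted value depends on the prior count. Ifi204 also entered the test through the mT69a groups in which it was high. Without library 1 of the mT69a knockout Ifi204 was at 6.55 (adjusted p = 0.0157), Ifih1 at 1.47 (adjusted p = 0.0351) and Gbp7 at 2.78 (adjusted p = 0.078), and 5 members were called higher and Isg20 lower.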

How the results depend on the processing

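Of 57 calls of a member in a comparison, followed through 19 alternatives where a value could be had, 661 values stayed past the threshold in the same direction, 396 fell below it and 0 reversed. RLE scaling changed no count of called members. The cause of the changes below was not tested, apart from the genes that each alternative's own filter adds. The share of all genes called under each alternative is not given, so the counts below describe only how calls moved. In the mT69a knockout the 22 higher members became 41 without the count filter. On TPM scales they became 5 on log2(TPM + 1), 6 on log2(TPM + 0.1) and 3 on log2(TPM + 1) without a filter. A range with 1 library left out is not given here, since the fit without library 2 let members in through library 1 itself. For mT69a SPDEF-OE against control the 17 became 37 without the filter, 31 by DESeq2, 2, 7 and 1 on the same TPM scales and 4 to 33 with 1 library left out. The 7 differences between lines became 35 without the filter, 23 by DESeq2, 11 with the replicate block and 1, 3 and 1 on the TPM scales. Their 0 lower became 1 without the filter and 1 with the block. The 6 members lower in the mT69a controls became 23 without the filter, 11 by DESeq2, 1, 2 and 1 on the TPM scales and 1 to 20, and the 2 higher became 1 on each TPM scale and 1 to 2. In the mT6 knockout, 0 higher became 4 without the filter, 2 with the block and 0 to 1, and 1 lower became 3 without the filter. For mT6 SPDEF-OE against control, 1 higher became 2 without the filter, 3 with the block, 0 on each TPM scale and 0 to 1, and 1 lower became 7 without the filter, 2 by DESeq2 and 1 to 3. Against the knockout in mT6, 0 higher became 1 without the filter, and 0 lower became 5 without it, 1 by DESeq2 and 0 to 2. In mT69a the same comparison had 0 to 12 higher with 1 library left out, and its 0 lower became 8 without the filter, 2 with the block and 0 to 7. The difference between lines in SPDEF-OE against knockout had 1 higher without the filter.

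Libraries of different groups share a replicate number in the labels but nothing says what it stands for. Same-numbered libraries deviated together in all 15 pairs of groups (r = 0.205 to 0.531 across genes), a hint from the data and not from the design. With the replicate block, 16 members rose in the mT69a knockout: the calls of Irf9, Ifit1, Oas2, Oas3, Rsad2, Cmpk2, Ifi27 and Rtp4 were lost (adjusted p = 0.0514 in Cmpk2 to 0.0947 in Oas2) and Irf1 and Gbp2 were gained. Against control 19 rose in mT69a SPDEF-OE, with Irf9, Cmpk2 and Rtp4 lost and 5 gained. In the mT6 knockout Ifi211 and Isg20 were gained as higher (adjusted p = 0.035 and 0.00693). Among the differences between lines Ifih1 and Gbp7 were lost (adjusted p = 0.0588 and 0.058) and 7 were gained. Depth limits members with few control counts, since a ratio over 1 to 3 counts has an interval that spans more than an order of magnitude, and 2 libraries a group limit every call.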
